A study of Homo sapiens with 3 samples.

Results

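Wide stretches of H3K27ac that carry only a little H3K4me3 were described in HCC1599, an established breast cancer cell line that the series title counts as triple-negative. They were chosen by 2 measured values, width and overlap: peaks of the H3K27ac list on chromosomes 1 to 22 that were at least 4000 bp wide and of which H3K4me3 peaks covered more than 0 but less than 25% of the length. Of 71043 H3K27ac peaks, 479 met this rule, and 34.7% of all 71043 overlapped H3K4me3 at all. Width and share covered are given below as a description only.

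The series held 3 samples of the same line, whose cells it calls positive for MARCO-TST: chromatin immunoprecipitated with an antibody to H3K27ac from Active Motif, chromatin immunoprecipitated with an antibody to H3K4me3 from Cell Signaling Technology, and an input with no antibody. The labels name no treatment. Each mark had 1 library and 1 deposited peak list, so no difference below was tested and no value has a replicate check. Intervals are exact Clopper-Pearson 95% binomial intervals, or order-statistic 95% intervals for medians, which cover counting error only and take neighbouring peaks as independent. Read depth is unknown here, and a site without a peak is one where none was called. The 5 epithelial genes EPCAM, KRT8, KRT18, CDH1 and KRT5 had H3K27ac within 1 kb of a start and 4 of them, all but KRT8, had H3K4me3 there, while PTPRC, CD3E, PECAM1, COL1A2 and CD163, markers of 4 other cell types, had neither.

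H3K27ac is an acetylation of the histone H3 tail found at active promoters and active enhancers. H3K4me3 is a trimethylation of the same tail that is laid down mainly at gene starts, most strongly where the sequence is rich in CpG, the dinucleotide C followed by G. Long unbroken stretches of H3K27ac away from starts are often read as large enhancers of genes that define a cell type, and such enhancers usually carry little H3K4me3.

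The sequence at starts that fell inside these peaks is shown first, because the number of CpG in it is compared below with that at other starts. RefSeq (GRCh38.p14) lists windows of 300 bases, 250 before and 50 after a start, and 23 such windows of 20 genes had their start inside one of the 479 peaks. Of the 20 genes 3 were protein-coding and 17 were long noncoding RNA genes. Only 3 of the 23 starts lay on H3K4me3, and all 3 belonged to long noncoding RNA genes. Windows are written from 5′ to 3′ on the gene's own strand, with every CpG in capitals.

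The ACTN4 window (chr19:38693871-38694170, plus strand) belongs to a start inside the gene and has 4 CpG, and its start is 7709 bp from the nearest H3K4me3. ACTN4 encodes an actin-crosslinking protein.
ACTN4: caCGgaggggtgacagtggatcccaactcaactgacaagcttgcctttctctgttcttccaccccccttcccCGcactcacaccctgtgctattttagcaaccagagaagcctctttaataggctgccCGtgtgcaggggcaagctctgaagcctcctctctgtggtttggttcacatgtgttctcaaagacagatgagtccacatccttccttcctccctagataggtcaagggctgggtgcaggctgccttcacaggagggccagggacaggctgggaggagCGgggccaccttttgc

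The THEM5 window (chr1:151853663-151853962, minus strand) has 3 CpG and its start lies 6642 bp from H3K4me3, and the SASH1 window (chr6:148272078-148272377, plus strand) has 5 CpG and its start lies 1955 bp from H3K4me3. These are the other protein-coding starts inside the peaks; THEM5 was chosen after its values were seen.
THEM5: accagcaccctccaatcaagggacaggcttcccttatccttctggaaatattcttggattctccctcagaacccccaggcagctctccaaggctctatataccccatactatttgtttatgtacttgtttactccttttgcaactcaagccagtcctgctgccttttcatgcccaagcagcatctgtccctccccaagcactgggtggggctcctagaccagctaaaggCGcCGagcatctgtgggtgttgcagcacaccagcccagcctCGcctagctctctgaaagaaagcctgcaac
SASH1: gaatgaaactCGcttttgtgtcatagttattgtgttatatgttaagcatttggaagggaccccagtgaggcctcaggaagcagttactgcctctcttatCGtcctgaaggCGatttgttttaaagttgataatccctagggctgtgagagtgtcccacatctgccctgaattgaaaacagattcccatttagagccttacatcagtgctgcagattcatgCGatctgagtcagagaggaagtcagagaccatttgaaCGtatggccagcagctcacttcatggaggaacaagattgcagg

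The long noncoding RNA windows whose start lay on H3K4me3 are shown because they are the only listed starts that coincide with the small H3K4me3 peaks, and they were chosen after their values were seen. LOC124903318 (chr14:55103280-55103579, minus strand) has 6 CpG, LOC112268127 (chr14:94598874-94599173, minus strand) has 5 and CREB3L2-AS1 (chr7:137953098-137953397, plus strand) has 3.
LOC124903318: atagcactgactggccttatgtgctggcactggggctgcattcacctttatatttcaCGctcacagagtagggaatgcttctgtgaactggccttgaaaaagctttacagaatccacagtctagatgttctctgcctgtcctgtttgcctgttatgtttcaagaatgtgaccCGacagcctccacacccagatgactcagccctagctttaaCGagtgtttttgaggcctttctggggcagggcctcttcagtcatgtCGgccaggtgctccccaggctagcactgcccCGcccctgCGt
LOC112268127: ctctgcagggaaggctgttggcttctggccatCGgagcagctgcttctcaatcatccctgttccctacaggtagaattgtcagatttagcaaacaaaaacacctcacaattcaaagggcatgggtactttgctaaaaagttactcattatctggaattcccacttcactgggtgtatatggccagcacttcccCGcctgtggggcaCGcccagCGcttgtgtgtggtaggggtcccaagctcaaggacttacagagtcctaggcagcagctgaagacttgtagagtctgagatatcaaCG
CREB3L2-AS1: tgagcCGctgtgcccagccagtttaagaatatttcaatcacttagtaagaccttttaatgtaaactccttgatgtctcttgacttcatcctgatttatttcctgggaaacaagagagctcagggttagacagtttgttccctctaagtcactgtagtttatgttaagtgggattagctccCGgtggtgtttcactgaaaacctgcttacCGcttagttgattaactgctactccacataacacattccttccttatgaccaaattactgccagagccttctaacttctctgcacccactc

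For contrast, a start of NFIB, the nearest gene of 3 of the 479 peaks and the one with the widest H3K4me3 at a listed start among the list genes named below, has 48 CpG in its window (chr9:14314092-14314391, minus strand). NFIB encodes a transcription factor of the nuclear factor I family. At its starts the widest H3K4me3 peak was 21826 bp and the widest H3K27ac peak 30488 bp, and the 3 peaks with little H3K4me3 lay 102685 bp or more from the nearest protein-coding start.
NFIB: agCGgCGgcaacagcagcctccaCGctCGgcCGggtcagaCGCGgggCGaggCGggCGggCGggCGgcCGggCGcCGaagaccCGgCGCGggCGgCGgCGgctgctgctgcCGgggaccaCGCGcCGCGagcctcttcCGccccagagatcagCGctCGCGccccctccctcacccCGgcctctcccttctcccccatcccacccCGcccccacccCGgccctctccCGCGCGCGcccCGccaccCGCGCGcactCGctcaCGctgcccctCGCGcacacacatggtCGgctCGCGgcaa

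Over the 23 windows inside the 479 peaks the median number of CpG was 4, with a range of 0 to 10. In wide H3K27ac peaks with no H3K4me3 it was also 4 (36 windows, 0 to 26), in wide peaks covered to 25% or more it was 26 (2359 windows, 0 to 60), and over all 33725 listed autosomal windows it was 14. Split by kind of gene, noncoding windows had a median of 4 inside the 479 peaks (20 windows), 21 inside wide peaks covered to 25% or more (511 windows) and 5 over all listed noncoding starts (12569 windows). The window table lacks some genes, and only its listed starts are counted here. The rule limits H3K4me3, which is laid down most strongly at starts rich in CpG. The contrasts in CpG with peaks covered to 25% or more are therefore in part set by the rule.

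The 479 peaks ranged from 4005 to 32077 bp in width, with a median of 5673 bp, and 54 of them were 10000 bp or wider. H3K4me3 covered a median of 17.8% of their length (interquartile range 13.9 to 21.4%), or 976 bp (762 to 1311 bp). Just inside the width limit lay peaks assigned to PTGFRN (4005 bp, 14.9% covered), S100A6 (4014 bp, 9.82%) and TMCO4 (4020 bp, 21.8%), and just outside it lay peaks assigned to MRPS27 (3994 bp, 14.3%), DMRT2 (3989 bp, 19.4%) and WDR45B (3986 bp, 15.9%). At the other limit, peaks assigned to VPS51 and APOL6, just inside, were covered to 24.92% and 24.90%, and those assigned to ATP9A and GJC3, just outside, to 25.03% and 25.04%. The least covered were at HEXIM1 (40 bp, 0.839%), INSR (100 bp, 1.82%) and POLR1C with XPO5 (194 bp, 4.18%), and the widest peaks with no H3K4me3 were assigned to LYN (17074 bp), RXFP4 with ARHGEF2 (13524 bp) and MTMR12 (13418 bp). Membership turned gradually at the limits: 176 peaks were covered to between 20% and 25%, against 172 wide peaks between 25% and 30%.

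**Figure D1:**
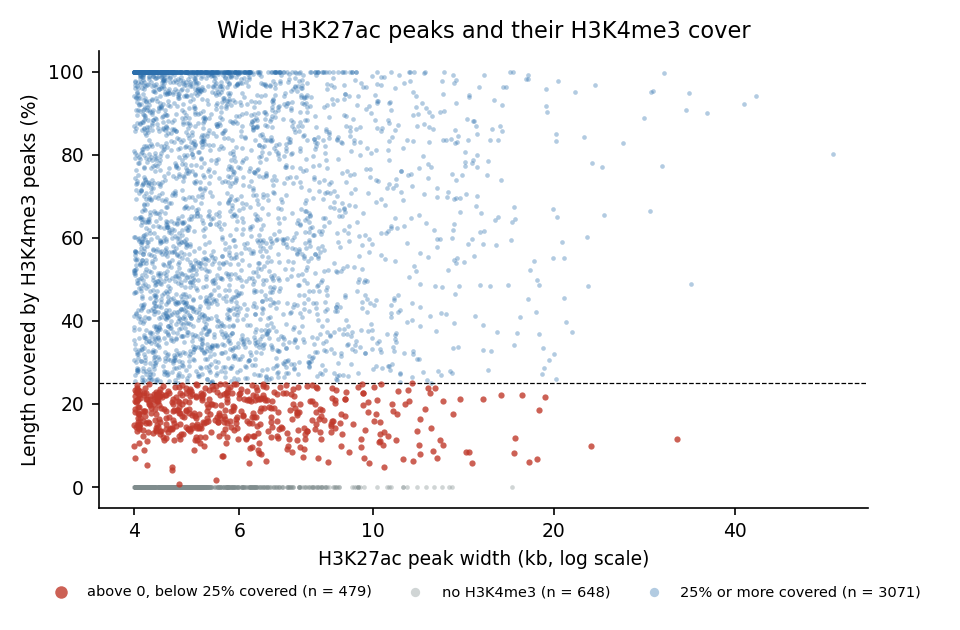
Each point is an H3K27ac peak at least 4000 bp wide on chromosomes 1 to 22, with its width in kb on a log axis and the percent of its length covered by H3K4me3 peaks. The 479 peaks above 0 and below 25% (dashed line) form a band next to the 648 with no H3K4me3 and the 3071 covered to 25% or more, and the points run on across the 25% line without a gap.

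The H3K4me3 inside these peaks was short and weak. It came as 1 H3K4me3 peak in 425 of the 479 and as several in 54, of which 49 had 2, 4 had 3 and 1 had 4. The 539 H3K4me3 peaks involved had a median width of 939 bp, a width that the rule limits. Their median score, which is the authors' value with no stated unit and runs from 30 to above 3100 in each list, was 62.4 (95% interval 57.1 to 69.0), against 677 (573 to 790) for the 4221 H3K4me3 peaks in wide peaks covered to 25% or more and 591 over all 31074 autosomal H3K4me3 peaks. In 325 of the 479 peaks (67.8%, 63.5 to 72.0) no H3K4me3 peak scored 100 or more, and in 11 one scored 3100 or above.

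Score and width go together in a peak list, so H3K4me3 peaks of similar width were set beside them. Between 725 and 1229 bp, the middle range of the 539, the 271 H3K4me3 peaks inside the 479 had a median score of 62.6 (57.1 to 70.0). The 3109 other H3K4me3 peaks of that width that lay on H3K27ac and away from protein-coding starts had 72.7 (70.3 to 75.0), and all 5875 others of that width had 88.3 (85.3 to 91.1). The intervals of the 271 and the 3109 nearly touched, at 70.0 and 70.3, and the difference was not tested. The rule limits the width of this H3K4me3, so the larger score contrasts over all widths are in part set by the rule.

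**Figure D2:**
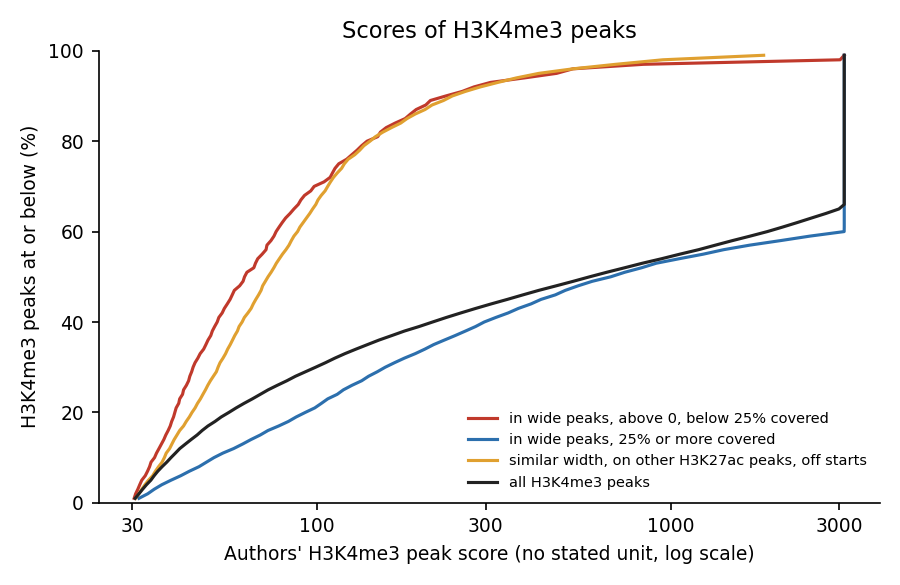
Cumulative share (percent) of H3K4me3 peaks at or below each of the authors' scores, on a log axis, for the 539 H3K4me3 peaks inside the 479 H3K27ac peaks, those in wide peaks covered to 25% or more, 3109 of similar width on other H3K27ac peaks away from protein-coding starts, and all 31074. Below a score of 100 lie 70.1% of the 539, which are of any width, against 21.3% in wide peaks covered to 25% or more and 30.1% of all. Between 725 and 1229 bp the share is 77.1% of the 271 inside the 479 (not drawn separately), against 66.6% of the 3109.

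H3K4me3 lay inside the H3K27ac peak rather than across its edge. In 452 of the 479 it stopped short of both ends of the peak, and in 27 (5.64%, 3.75 to 8.10) it reached an end, against 1518 of 3071 (49.4%, 47.6 to 51.2) wide peaks covered to 25% or more and 78.2% of all 24684 autosomal H3K27ac peaks that overlapped H3K4me3. The share reaching an end was 12.6% (8.87 to 17.3) with scores of at least 100 in both lists, 8.59% (6.60 to 10.9) with a minimum width of 3000 bp and 3.07% (1.96 to 4.57) with neighbouring H3K27ac peaks merged. With the width divided into 3 equal parts, the centre of the H3K4me3 lay in the middle part in 251 (59.1%, 54.2 to 63.8) of the 425 with 1 H3K4me3 peak, in the lower part in 88 and in the upper part in 86. The median distance between the centres was 745 bp. A short H3K4me3 peak has more room inside a wide peak, so these shares are in part set by the rule.

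Narrower H3K27ac peaks held the same low share of H3K4me3 in another way. Of 924 peaks narrower than 4000 bp that were covered to more than 0 and less than 25%, H3K4me3 reached an end in 608 (65.8%, 62.6 to 68.9), and its centre fell in the middle part in 20.5% (17.9 to 23.2) of the 918 with 1 H3K4me3 peak. These peaks were 1716 bp wide at the median and their H3K4me3 peaks 804 bp, so few of them had room for a whole H3K4me3 peak under 25%, and the contrast is in part set by width. Along the 479 wide peaks the share of peaks under H3K4me3 averaged 31.0% over the central 20% of the width, 3.84% over the first 10% and 3.05% over the last 10%.

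**Figure D3:**
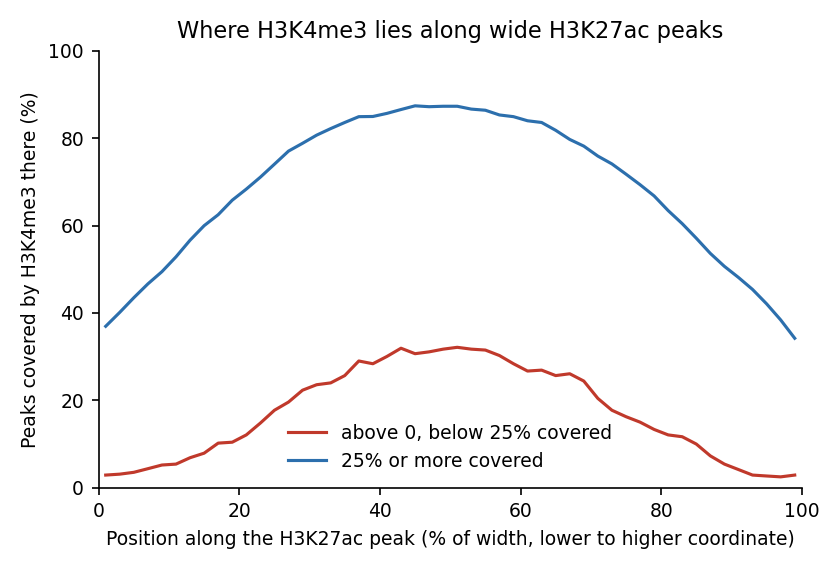
Percent of H3K27ac peaks covered by H3K4me3 at each position along the peak (percent of width, from the lower to the higher coordinate), for the 479 peaks with little H3K4me3 and the 3071 covered to 25% or more. Both curves are highest near the centre, at up to 32.1% and 87.4%, and the first falls to 2.92% at the lower edge, where the other stands at 37.0%.

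The 27 peaks whose H3K4me3 reached an end differed from the other 452 in that H3K4me3. The 34 H3K4me3 peaks in them scored a median of 384 and were 1604 bp wide at the median. The 505 inside the other 452 scored 60.4 and were 931 bp wide, and 10 of the 34 scored 3100 or above against 1 of the 505. In 11 of the 27 that H3K4me3 lay within 1 kb of a protein-coding start, against 4 of the 452. All 4, and some of the 11, ZNF750 among them, were at an end of a gene without a listed start, where either end was counted. In these 11, H3K4me3 at a gene start or at such an end overlapped the edge of the H3K27ac peak. At ZNF750, which encodes an epidermal transcription factor, H3K4me3 of 6703 bp with a score of 3100 overlapped the last 224 bp of a 4643 bp H3K27ac peak over TBCD and ZNF750. At EEIG1 an H3K4me3 peak of 6841 bp overlapped 1235 bp of a 14450 bp H3K27ac peak, and at HEXIM2 one of 3263 bp overlapped 40 bp of a 4766 bp peak assigned to HEXIM1.

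Most of the 479 peaks lay away from protein-coding starts. The rule limits H3K4me3, which is laid down mainly at gene starts. The contrasts below, above all with peaks covered to 25% or more, are therefore in part set by the rule. Within 1 kb of one were 18 (3.76%, 2.24 to 5.87), against 33 of 648 wide peaks with no H3K4me3 (5.09%, 3.53 to 7.08), 1569 of 3071 covered to 25% or more (51.1%, 49.3 to 52.9) and 18.9% of all 71043 H3K27ac peaks. Of the 18, 6 were at a listed start and 12 only at an end of a gene whose start the window table does not list, where either end was counted. With either end of every gene counted the share was 10.6% (8.03 to 13.8), and with H3K4me3 covering up to 40% it was 6.82% (5.36 to 8.54). Their H3K4me3 touched a protein-coding start in 15 (3.13%, 1.76 to 5.11), against 52.6% (50.8 to 54.4) in wide peaks covered to 25% or more and 56.8% over all H3K27ac peaks with H3K4me3. The share touching one was 7.66% (4.74 to 11.6) with scores of at least 100 in both lists. In some of the 15 the place touched was only an end of a gene without a listed start, where either end was counted. Of the 539 H3K4me3 peaks 15 (2.78%, 1.57 to 4.55) were at a protein-coding start, against 44.4% of the whole H3K4me3 list.

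Starts of genes of any kind were within 1 kb of 92 of the 479 (19.2%, 15.8 to 23.0), against 19.8% (16.8 to 23.0) of the wide peaks with no H3K4me3, 61.4% (59.7 to 63.2) of those covered to 25% or more and 25.3% of all H3K27ac peaks. Peaks with little and with no H3K4me3 thus had nearly the same shares at starts of either kind. The nearest protein-coding start was a median of 26920 bp from the edge of the 479 peaks (21795 to 30469) and 27313 bp (23388 to 32054) from wide peaks with none. It was 10 to 50 kb away from 214 of the 479 and more than 100 kb away from 70.

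Of the 479 peaks 267 (55.7%, 51.2 to 60.2) were centred in a protein-coding gene, against 55.7% (51.8 to 59.6) of wide peaks with no H3K4me3, 69.7% (68.1 to 71.3) of those covered to 25% or more and 59.4% of all H3K27ac peaks. The next shares count only peaks away from starts but keep every peak of the class in the denominator. A class with many peaks at starts is therefore lower by construction. Centred inside a protein-coding gene and away from starts were 256 of the 479 (53.4%, 48.9 to 58.0), against 337 of 648 with no H3K4me3 (52.0%, 48.1 to 55.9), 883 of 3071 covered to 25% or more (28.8%, 27.2 to 30.4) and 45.2% of all H3K27ac peaks. Centred outside genes of every kind were 155 (32.4%, 28.2 to 36.8), against 31.2% (27.6 to 34.9), 20.8% (19.4 to 22.3) and 29.2%. A further 57 were centred in genes that are not protein-coding only. Exon and intron positions were not used here.

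**Figure D4:**
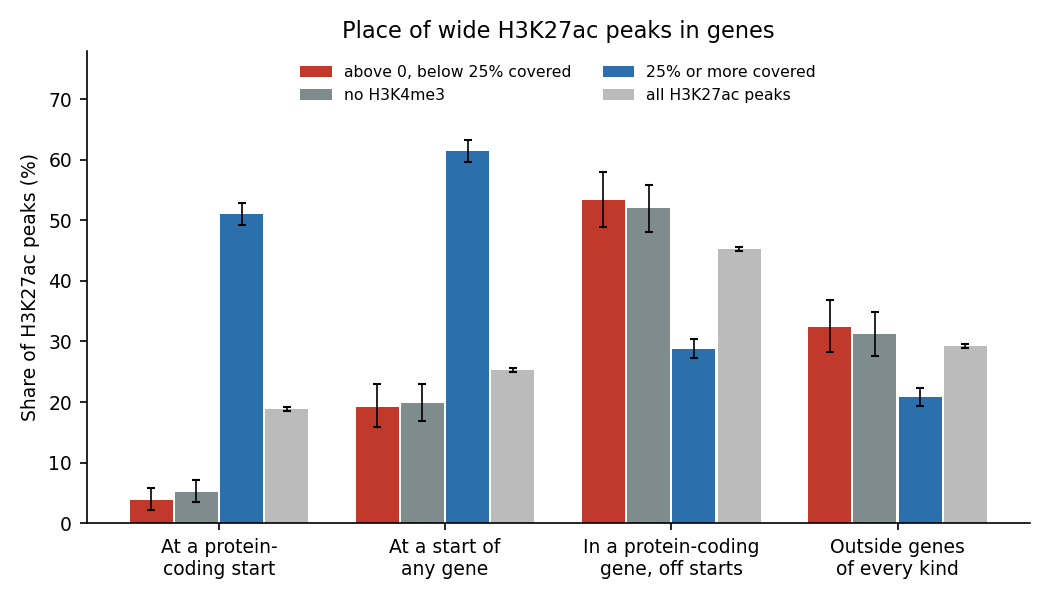
Share of H3K27ac peaks (percent, bars from 0, whiskers exact 95% binomial intervals) at a protein-coding start, at a start of any gene, in a protein-coding gene away from starts, and outside genes of every kind. Grey bars on the right of each group are all 71043 H3K27ac peaks. Bars for the 479 peaks with little H3K4me3 and the 648 with none stand within each other's whiskers in all 4 groups, and the 3071 covered to 25% or more differ from both, most at starts (51.1% against 3.76% and 5.09%).

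Of the 256, 223 were in a gene whose strand is listed, and the longest such gene was used. The centres of these peaks lay a median of 49047 bp from the 5′ end of the gene span. Starts listed further inside the gene were not used for this distance. Of the 223, 65 (29.1%, 23.3 to 35.6) were in the first of 3 equal parts of the gene, 65 in the middle part and 93 in the last. Wide peaks with no H3K4me3 had nearly the same shares, 25.4% (20.2 to 31.2) in the first part and 40.6% in the last. Wide peaks covered to 25% or more that were centred in a gene and away from starts had 40.1% (36.4 to 43.8) in the first part and 27.8% in the last, against 41.7% in the last for the 223. The median length of the genes was 114131 bp for the 223, against 89702 bp for wide peaks with no H3K4me3, 120460 bp for those covered to 25% or more and 24476 bp over all 19126 autosomal protein-coding genes, so long genes were common to the 3 classes. A long gene offers more room for an inner peak, and this was not corrected for.

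The H3K27ac peaks themselves were strong. Their median score was 2681 (2503 to 2958), against 1410 (1296 to 1547) for wide peaks with no H3K4me3 and 3100 for those covered to 25% or more, and 204 of the 479 (42.6%, 38.1 to 47.2) scored 3100 or above, against 19.3% (16.3 to 22.5), 56.7% (54.9 to 58.4) and 3.78% of all H3K27ac peaks. The score also varied with width. The rule sets a minimum width, so the contrast with all H3K27ac peaks is in part set by the rule. At 4000 to 5000 bp the median was 1829 (1481 to 2225) for 169 peaks with little H3K4me3, against 1124 (968 to 1234) for 378 with none. At 5000 to 6000 bp it was 2403 (2180 to 2679) against 1917 (1532 to 2399), where the intervals overlap, and at 6000 to 8000 bp 3100 (2836 to 3100) against 2127 (1767 to 2787). At 8000 bp and above both medians were 3100, for 102 peaks (3100 to 3100) and 43 with none (2673 to 3100). Wide peaks covered to 25% or more had a median of 2306 (2178 to 2472) at 4000 to 5000 bp. At 5000 to 6000 bp their median was 3100 (3100 to 3100). At 6000 to 8000 bp 72.6% of them scored 3100 or above, against 56.0% of peaks with little H3K4me3. At 8000 bp and above these shares were 85.9% and 74.5%.

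Within the 479 the best H3K4me3 score was higher where the H3K27ac score was higher, as a description over peaks of 1 library. The strongest H3K4me3 peak inside had a median score of 52.6 in the 56 H3K27ac peaks scoring below 1000, 62.2 in the 219 from 1000 to below 3100 and 80.7 in the 204 at 3100 or above. Median widths in the same order were 4642, 5201 and 6854 bp, and the covered length was 858, 944 and 1136 bp. The covered share was 18.4%, 18.0% and 17.2%. Several H3K4me3 peaks lay in 5.36%, 9.59% and 14.7% of them, so the strongest was taken over more peaks in the higher groups. The rule limits the covered share, so wider H3K27ac peaks had room for longer H3K4me3 peaks. Score and width go together in a peak list, so the rise can be in part set by the rule. Whether it holds at equal width was not tested.

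The edges of a peak depend on where the caller ended it. Another H3K27ac peak lay less than 500 bp away from 201 of the 479 (42.0%, 37.5 to 46.5), against 36.7% (33.0 to 40.6) for wide peaks with none and 39.6% (37.9 to 41.4) for those covered to 25% or more. Another of the 479 lay within 50 kb of 101 of them (21.1%), a share not counted for the other classes. Neither of these shares was counted over all H3K27ac peaks, so no spacing particular to the 479 is read from them. By chromosome, the 479 made up between 4.76% of wide peaks on chromosome 8 (17 of 357) and 20.8% on chromosome 13 (10 of 48). Chromosome 8 also had the largest share of wide peaks among its H3K27ac peaks, 16.2%.

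The 15 widest of the 479 ran from 13978 to 32077 bp, 13 of them overlapped a protein-coding gene, and 10 scored 3100. Of the 24 H3K4me3 peaks in them 13 scored below 100 and 2 scored 3100. The widest, chr19:32998942-33031018, lay in RHPN2, 26700 bp from the nearest protein-coding start. Its H3K4me3, of 3720 bp with a score of 390, lay 24650 bp from its lower and 3707 bp from its upper edge. An H3K27ac peak of 30326 bp and H3K4me3 of 16734 bp stood at RHPN2's own start. Between them and the widest peak lay 1 H3K27ac peak of 5225 bp, with gaps of 11 and 101 bp, so the H3K27ac was nearly continuous from the widest peak to the start.

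ACTN4 held the widest pair, of 23038 bp (chr19:38704664-38727701) and 18890 bp (chr19:38677323-38696212), both scored 3100. In the wider one 2 H3K4me3 peaks of 1218 and 1037 bp scored 51.5 and 109 and lay 7162 bp or more from either edge. In the other the H3K4me3 peaks were 910 and 2593 bp wide and scored 169 and 463, and the start shown above lay between them and the upper edge. The widest H3K4me3 peak at a start of ACTN4 was 20630 bp.

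In 1 of the 15 widest, at EEIG1, H3K4me3 ran across an edge. A 19365 bp peak (chr20:50232317-50251681) lay outside protein-coding genes, 39627 bp from CEBPB, a transcription factor gene of the C/EBP family, and held 3 H3K4me3 peaks scored 160, 48.5 and 278. A 17720 bp peak in YPEL2 held 4, the most of any, scored between 39.3 and 76.2. An 18763 bp peak in ARHGEF37 held 2, scored 60.3 and 43.9, the second 211 bp from the upper edge. The 14617 bp peak in DAPK1, which encodes a death-associated protein kinase, and the 14294 bp peak in ITPKB, an inositol trisphosphate kinase gene, held 1 each, scored 42.1 and 56.2. NIBAN2 held one of 15250 bp with H3K4me3 scored 35.0 and 341.

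Of the 15 widest, 4 were on chromosome 8. They lay in NDRG1, a hypoxia-induced gene (18165 bp), in SLC45A4 (17255 bp), 7123 bp from POU5F1B (16329 bp) and in PLEC, the plectin gene (13978 bp). In PLEC the H3K4me3 of 2973 bp scored 3100 although it stopped 4811 bp or more from either edge, the only such case among the 452, whereas in the other 3 it scored 67.6, 57.6 and 111. The peak in NDRG1 scored 1021, against 3100 for most of the widest, and the one in AMOTL2, an angiomotin family gene, was 17182 bp wide and scored 1553.

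**Figure D5:**
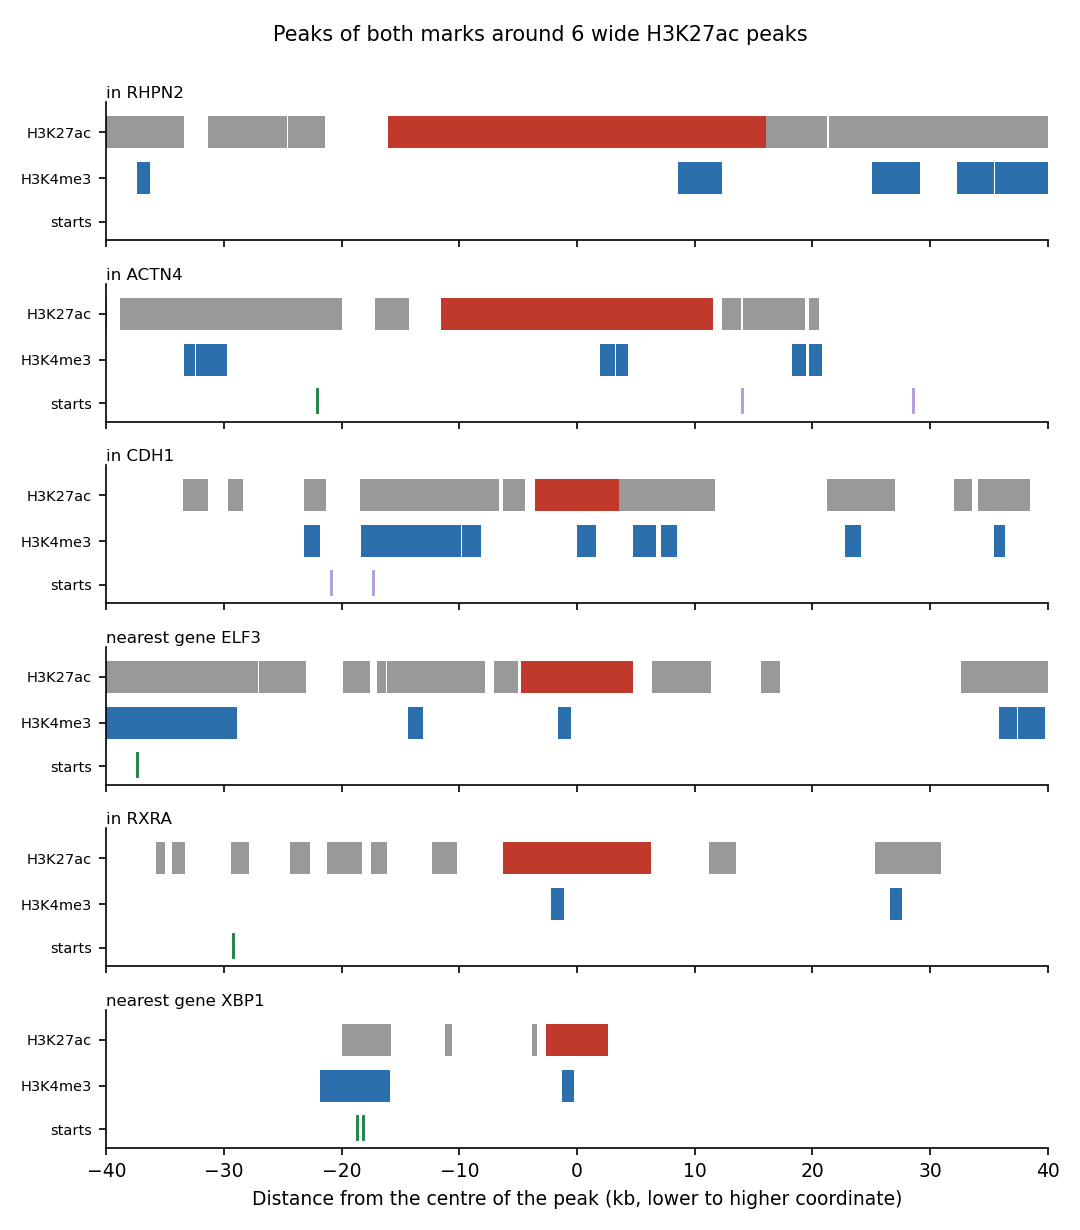
Peaks of each mark within 40 kb of the centre of 6 wide H3K27ac peaks with little H3K4me3 (red; all other H3K27ac peaks grey, H3K4me3 blue), plotted by distance from that centre in kb, with listed protein-coding starts in green and ends of genes without a listed start in purple. In RHPN2, ACTN4, CDH1 and RXRA and beside ELF3 and XBP1 the red peak holds 1 or 2 H3K4me3 peaks inside its edges.

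Above 3100 scored 8 of the 479 peaks, up to 3222, and 196 tied at 3100. The highest was a 5011 bp peak in TSC1, a tumour suppressor gene of the mTOR pathway, with H3K4me3 of 875 bp scored 33.9. Next were a 4430 bp peak 57885 bp from ADRB1, the beta-1 adrenergic receptor gene, at 3206, a 4063 bp peak 6236 bp from MAPK1IP1L at 3198, and an 8848 bp peak over MRPL45 and GPR179 at 3168. Peaks assigned to EFNA5, an ephrin gene, ANKRD55, SASH1 and MYO5B, a myosin motor gene, scored 3148, 3123, 3122 and 3122. In these 8 the H3K4me3 scored 33.9 to 98.4. The widest of those tied at 3100, after the 15 widest, were a 13581 bp peak 16619 bp from CALML3, a calmodulin-like gene, and a 13104 bp peak 130091 bp from FAM110B, with H3K4me3 scored 268 and 149.

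The 479 peaks overlapped, or were nearest to, 424 protein-coding genes, 2.22% of the 19126 on these chromosomes. They overlapped 262 genes, and 162 were nearest only; the 193 peaks outside protein-coding genes were a median of 29826 bp from the nearest (interquartile range 10383 to 82531 bp). Most of these genes carried both marks at a start of their own: 362 of 424 (85.4%, 81.6 to 88.6) had both within 1 kb, against 79.5% (75.8 to 82.9) of the 532 genes at wide peaks with no H3K4me3, 91.3% (90.2 to 92.3) of the 2703 at wide peaks covered to 25% or more and 58.6% of all. H3K4me3 alone was at 22, H3K27ac alone at 10 and neither at 30. Any start of a gene was counted, or either end where none is listed, and the marks could be at different ones. Their start windows had a median of 31 CpG in the richest window per gene (350 of 424 genes listed), against 25 over all listed genes. The same median was 29 for genes at wide peaks with no H3K4me3 and 30 for those at wide peaks covered to 25% or more. A gene with more starts has more places to be counted in both measures, and this was not corrected for.

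Most genes had 1 such peak, 369 of the 424, and 47 had 2, 6 had 3 and 2 had 4. RXRA, encoding the retinoid X receptor alpha, had 4, of 12598, 6598, 5777 and 5554 bp, 3 of them in the gene and the second 37752 bp away from it. Their scores differed widely, at 2852, 3100, 615 and 564, while every H3K4me3 peak in them scored between 30.6 and 273. SLC39A11, a zinc transporter family gene, also had 4, of which 1 lay in the gene and 3 lay 179560 bp or more away within LINC00673, a long noncoding RNA gene. Nearest by distance thus joins peaks to a gene that does not hold them.

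CDH1, encoding E-cadherin, the adhesion protein of epithelial junctions, held 3 peaks with little H3K4me3. They were 7163, 5752 and 4394 bp wide and scored 2493, 1412 and 439, with H3K4me3 peaks scored 93.2, 137 and 42.3. CDH1 has no listed start, and one of its ends carried H3K27ac of 10774 bp and H3K4me3 of 5703 bp, both scored 3100. In CDH3, encoding P-cadherin of basal epithelial cells, a peak of 4045 bp scored 3100 and held H3K4me3 of 587 bp scored 48.8. DAPK1, MTMR12, a myotubularin family gene, ASB7 and TBCD, a tubulin-folding cofactor gene, had 3 peaks each as well.

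Lists of 299 autosomal genes, chosen with earlier results of these data known, gave 17 genes with one of the 479 peaks (5.69%, 3.35 to 8.95), against the 2.22% of all protein-coding genes. The 20 regulators of epithelial identity had 7 (35.0%, 15.4 to 59.2), the most of the 19 lists. The same 20 genes had 9 with a wide peak without H3K4me3, against 2.78% of all protein-coding genes, and 14 with one covered to 25% or more, against 14.1% of all. Of the 7, 5 also had a wide peak without H3K4me3 and all 7 one covered to 25% or more. The 7 had 11 peaks of 4750 to 9564 bp, of which 3 were inside the gene and 8 outside, and the 12 H3K4me3 peaks in them scored 31.1 to 275 and reached no end.

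ELF3, an epithelial ETS factor gene, was nearest to 2 peaks of 9564 and 8311 bp, both scored 3100, at 26052 and 14666 bp from the gene. GRHL3, a grainyhead factor gene, was nearest to 1 of 8530 bp at 27135 bp, and GRHL2 held 2, of 7932 and 7371 bp. Each of these 3 genes had H3K4me3 scored 3100 at its own start or end, of 13602 bp at ELF3, 8903 bp at GRHL3 and 9877 bp at GRHL2. TFAP2C, encoding the AP-2 gamma factor, was nearest to a peak of 6400 bp at 107404 bp, and TRPS1, a GATA-type repressor gene, to one of 6167 bp at 417638 bp. RUNX1 held a peak of 5238 bp scored 2403, with H3K4me3 scored 34.4. NFIB was nearest to 3, of 5715, 4970 and 4750 bp, at 3724, 179158 and 361004 bp.

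The other lists had 0 to 2 genes each. Growth factor receptors and ligands had 2 of 20, IGF1R with a peak of 8880 bp and INSR, the insulin receptor gene, with the peak whose H3K4me3 covered only 100 bp. Hypoxia targets had 2 of 17, NDRG1 and P4HA1, a collagen prolyl hydroxylase gene. XBP1 among 17 luminal genes, KRT23 among 10 luminal progenitor genes, CDH3 among 20 basal genes, CDH1 among 20 junction genes, MAML2, a coactivator of Notch, among 20 Notch pathway genes and AMOTL2 among 17 YAP and TEAD targets were 1 each. XBP1's peak, 15558 bp from the gene, was 5312 bp wide and scored 3100, with H3K4me3 of 1021 bp scored 138, and the XBP1 start had H3K4me3 of 5900 bp.

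In 10 lists no gene was nearest to one of the 479 peaks: AP-1 factors, cytokine and NF-kB targets, cell cycle, housekeeping, ribosomal protein and mesenchymal transition genes, and genes of fibroblasts, macrophages, lymphocytes and endothelium. With 11 to 20 genes a list, no gene allows a share of up to 28.5% in the smallest and 16.8% in the largest. Housekeeping and ribosomal protein genes had wide peaks covered to 25% or more at 8 of 13 and 7 of 13, against 14.1% of all protein-coding genes. MARCO had none of the 479, and a wide peak without H3K4me3 was assigned to it.

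The RefSeq gene table places 6 microRNA genes inside 6 of the 479 peaks, 6 inside 6 of the 648 with no H3K4me3 and 80 inside 75 of the 3071 covered to 25% or more. The share over all H3K27ac peaks was not counted, and no difference is read from these counts. MIR455 is shown because it lay in the widest of the 479 peaks for which a hairpin and mature sequences are listed. This was a 9440 bp peak in COL27A1, a collagen gene, and scored 3100. It was covered to 24.1% by H3K4me3 that did not reach the hairpin (chr9:114209434-114209529, plus strand). Its mature sequences from RefSeq (GRCh38.p14) are shown with the seed, bases 2 to 8, in capitals, and they share no seed.
hsa-miR-455-5p: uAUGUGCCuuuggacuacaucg
hsa-miR-455-3p: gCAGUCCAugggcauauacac
The others were MIR661 in PLEC, MIR3163 in PC, MIR2116 in MYO1E, MIR6070 in HSF2BP and MIR4729 in YPEL2. Of the 6, 1 overlapped H3K4me3, MIR4729 in the 17720 bp peak.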

How the data were processed

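Chromatin of HCC1599 cells was immunoprecipitated for H3K27ac or H3K4me3 and sequenced, as 1 library for each mark. The submitters' processing notes name Bowtie2, MACS 1.4 and hg38; parameters are not given in the sources used here. The authors deposited 1 peak list per mark, with positions and a score of no stated unit, which is used only to describe and rank peaks within a list. Per the labels' protocols, chromatin was sonicated and digested with micrococcal nuclease, so peak edges and gaps can depend on digestion and on how the caller joined peaks. The input and read depth were not analysed here.

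Of 72895 H3K27ac and 32045 H3K4me3 rows, the 71043 and 31074 on chromosomes 1 to 22 were used. Positions are in hg38, counted from 1. Gene spans came from RefSeq (GRCh38.p14). Starts came from the listed start windows for 15101 of 19126 autosomal protein-coding genes (79.0%), and for the other 4025 either end of the span was counted as a start. A peak was assigned to every protein-coding gene it overlapped, otherwise to the nearest. Covered length is the overlap with H3K4me3 rows, which was checked against bedtools 2.31.1 (0 of 71043 rows differed), and the classification was tested on simulated data. No p-value was computed, since there are no replicates.

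The rule, the members and the gene lists were chosen with earlier results of these data known. Genes named are those at the 15 widest peaks, the 10 highest-scoring of the others, up to 10 genes with most peaks, members of the lists, peaks next to the limits (some of which are not reported here), and MARCO; HEXIM2, ZNF750, THEM5, COL27A1, HSF2BP, PC, MYO1E, LINC00673 and the microRNAs were chosen after their values were seen. Python 3.11.15, numpy 2.4.6, pandas 2.3.3, scipy 1.17.1 and matplotlib 3.10.9 were used.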

Additional observations from a re-analysis of the deposited data

How the results depend on the processing

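No paired analysis was possible because each mark had 1 library. Of 87 values under 13 alternatives, 56 stayed within the interval of the reported value, or within 1.5 times a reported count, and 31 did not; the cause was not tested. All but either end of every gene span, added after seeing the data, were planned. With scores of at least 100 in both lists, 261 peaks remained, 154 of them among the 479; their median score was 3100, 58.2% were inside genes away from starts, 27.2% outside genes, in 12.6% H3K4me3 reached an end and in 7.66% it touched a start, and they had 250 genes and 11 list genes. A minimum width of 3000 bp gave a median score of 2046 and 8.59% reaching an end, and one of 6000 bp gave 211 peaks, a median score of 3100, 27.5% outside genes and 193 genes. A limit of 15% covered gave 157 peaks, 156 genes and 7 list genes, and one of 40% gave 1026 peaks, 6.82% at starts, 6.04% touching one, 885 genes and 34 list genes. Merging H3K27ac peaks less than 500 bp apart gave 749 regions, which held 442 of the 479, with a median score of 2044 (the highest score in each region), 3.07% reaching an end, 661 genes and 26 list genes. Counting genes of every kind put 19.2% at starts and 10.4% touching one, and either end of every gene span 10.6% and 5.64%. In 325 of the 479 no H3K4me3 peak scored 100 or more, so membership there rests on H3K4me3 calls between 30 and 100, and depth is unknown.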
